A study of Mus musculus with 4 samples.

Results

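Expression of 10 transcription factor genes of limb and mesoderm patterning was measured in mouse embryonic fibroblasts (MEFs) with and without Ip6k1, the gene for inositol hexakisphosphate kinase 1. They were the T-box genes Tbx2, Tbx3, Tbx4, Tbx5, Tbx15 and Tbx18 and the homeobox genes Meox1, Meox2, Pitx1 and Emx2. They were represented by every probe on the array that carried 1 of these 10 gene names, which gave 19 of the 41174 probes and 10 of the 27827 gene names. The Ip6k1+/+ group held 2 MEF lines and the Ip6k1-/- group held 2 MEF lines. All 4 came from embryonic day 14 littermates of a cross between heterozygous mice, and every line, controls included, had been immortalised with SV40 large T antigen. Each line stood for 1 embryo and was hybridised to 1 single-colour Agilent array, so n = 2 lines per genotype throughout. The line numbers are the replicate numbers of the labels. No statement in the labels ties line 1 of 1 genotype to line 1 of the other.

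T-box factors bind DNA through the T-box domain and act as activators or repressors in the mesoderm of the embryo. Tbx5 marks the forelimb bud, while Tbx4 and its upstream regulator Pitx1 mark the hindlimb bud. Tbx2 and Tbx3 are repressors of the limb margins, the heart and the mammary gland. Tbx15 and Tbx18 act in skeletal, dermal and somite mesenchyme, Emx2 is needed for the scapula and the urogenital system, and Meox1 and Meox2 pattern the somites.

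The signal of a probe is given as log2 of its processed fluorescence minus the 75th percentile of all probes on the same array, so that 0 is the brightness of the 75th percentile. A probe that the scanner software did not place well above its background has no level in that line, only an upper limit, and is described as not well above background. A probe was tested when it was well above background in both lines of at least 1 genotype. The limit of detection lay between -5.19 and -4.67 on this scale. On the arrays, 52.0% to 55.5% of the probes were well above background, and 9, 8, 9 and 6 of the 10 genes were in Ip6k1+/+ line 1, Ip6k1+/+ line 2, Ip6k1-/- line 1 and Ip6k1-/- line 2. In bulk RNA, fewer cells expressing a gene and less of its RNA per cell cannot be told apart.

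The labels were checked on Ip6k1. Its probe A_51_P213766 lay at 0.36 and 0.39 in Ip6k1+/+ MEFs and gave no signal well above background in Ip6k1-/- MEFs, which puts Ip6k1+/+ at least 34.1-fold above Ip6k1-/- (limma, Benjamini-Hochberg adjusted p = 0.0348). Its probe A_51_P103718 kept a signal well above background in every line, at 2.46 and 2.61 in Ip6k1+/+ MEFs against -1.98 and -1.22 in Ip6k1-/- MEFs, 17.6-fold between the means (limma, adjusted p = 0.357). Of the 14 fibroblast markers examined, 14, 14, 14 and 13 were well above background in Ip6k1+/+ line 1, Ip6k1+/+ line 2, Ip6k1-/- line 1 and Ip6k1-/- line 2. Their mean log2 signal was 4.21 and 4.21 in Ip6k1+/+ MEFs against 3.55 and 3.39 in Ip6k1-/- MEFs. Markers of other cell types were partly measured. In Ip6k1+/+ line 1, Ip6k1+/+ line 2, Ip6k1-/- line 1 and Ip6k1-/- line 2, those well above background were 4, 5, 3 and 3 of 10 for epithelium, 3, 2, 3 and 2 of 8 for endothelium, and 3, 2, 1 and 2 of 8 for blood. They were 2, 2, 3 and 2 of 9 for skeletal muscle, 2, 2, 3 and 3 of 8 for heart, and 3, 3, 3 and 4 of 8 for mesothelium and epicardium, a list that holds Tbx18 itself. Krt19, Cldn3, Cldn7, Flt1, Kdr, Cd68, Actc1, Tnnt2, Tnni3 and Msln were measured in every line, while Cdh1, Pecam1, Ptprc, Myod1, Myh6 and Wt1 were in none. Kdr had a log2 difference of 1.56 (limma, adjusted p = 0.994), higher in both Ip6k1-/- lines. Marker levels also differed with genotype: Dcn, Pdgfrb and Col6a1 passed the 2-fold cutoff described below as lower in Ip6k1-/- MEFs, with log2 differences of -2.40, -1.20 and -1.30. The chondrocyte marker Col2a1 did so at -2.66, and the neural marker Sox2 also passed it, from -2.05 and -4.69 in Ip6k1+/+ MEFs to no signal well above background in Ip6k1-/- MEFs. Of 8 chondrocyte markers 5, 4, 5 and 4, and of 8 neural markers 2, 4, 1 and 2, were well above background in the same order of lines. The part of these in the results on the patterning factors was not tested.

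The probes are 60-base DNA oligonucleotides, and coding-sequence probes of Meox2, Tbx4 and Tbx5 are printed here. Each of those printed was well above background in some of the lines only. All letters are lower case, 5′ to 3′. The Meox2 probe lies in the homeobox and bridges a splice junction, since it spans 10724 bases of the genome (mm9 chr12:37894017-37904740). The Tbx4 probe lies in the T-box (mm9 chr11:85724652-85724711). The Tbx5 probe bridges a splice junction in the coding sequence and spans 11563 bases (mm9 chr5:120321392-120332954).
Meox2 A_52_P326096: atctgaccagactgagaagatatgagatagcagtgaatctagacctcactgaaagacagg
Tbx4 A_52_P562827: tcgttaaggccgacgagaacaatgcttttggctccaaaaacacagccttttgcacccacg
Tbx5 A_51_P469338: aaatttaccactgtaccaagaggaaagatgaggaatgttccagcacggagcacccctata

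Promoter sequences were read from RefSeq for the 4 of 10 genes with an entry, Emx2, Meox2, Tbx18 and Tbx4. The windows hold 300 bases around the start of the gene on GRCm38.p6, a later build than the mm9 of the arrays. Those of Meox2 and Emx2 are shown because these genes had line patterns of opposite direction. Capitals mark TAATTA, a core that homeobox factors bind. It was searched on both strands, together with the T-box half-site GGTGTGA and its shorter core GGTGTG, which the longer word contains. TAATTA stood once in the Emx2 window and in none of the other 3, and it stood in 5.29% of 32851 promoter windows. GGTGTGA was in 3.98% and GGTGTG in 19% of all windows, and neither was in these 4.
Meox2, chr12:37108290-37108589, plus strand: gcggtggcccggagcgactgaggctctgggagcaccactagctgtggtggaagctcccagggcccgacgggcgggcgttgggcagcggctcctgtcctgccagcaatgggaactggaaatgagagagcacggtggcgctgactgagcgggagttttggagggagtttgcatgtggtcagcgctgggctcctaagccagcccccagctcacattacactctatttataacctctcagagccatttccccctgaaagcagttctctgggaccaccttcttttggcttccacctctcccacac
Emx2, chr19:59458440-59458739, plus strand: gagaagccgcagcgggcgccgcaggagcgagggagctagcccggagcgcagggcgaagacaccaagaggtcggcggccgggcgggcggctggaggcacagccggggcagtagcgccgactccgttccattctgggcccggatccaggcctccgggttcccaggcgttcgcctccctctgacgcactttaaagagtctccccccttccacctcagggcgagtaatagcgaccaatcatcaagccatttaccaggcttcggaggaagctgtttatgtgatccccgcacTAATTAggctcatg

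Across the 4 lines the factors showed several kinds of pattern. Tbx2, Tbx15 and Tbx18 were measured in every line by at least 1 probe, with genotype differences within the spread of the lines. Tbx3, Tbx5 and Emx2 were also measured in every line by at least 1 probe and spread widely. Meox1 was measured in both Ip6k1+/+ lines and in neither Ip6k1-/- line. Meox2 and Pitx1 were switched between a measured signal and background from line to line of the same genotype. Tbx4 was well above background in 1 Ip6k1-/- line alone, and close to the detection limit there.

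**Figure D1:**
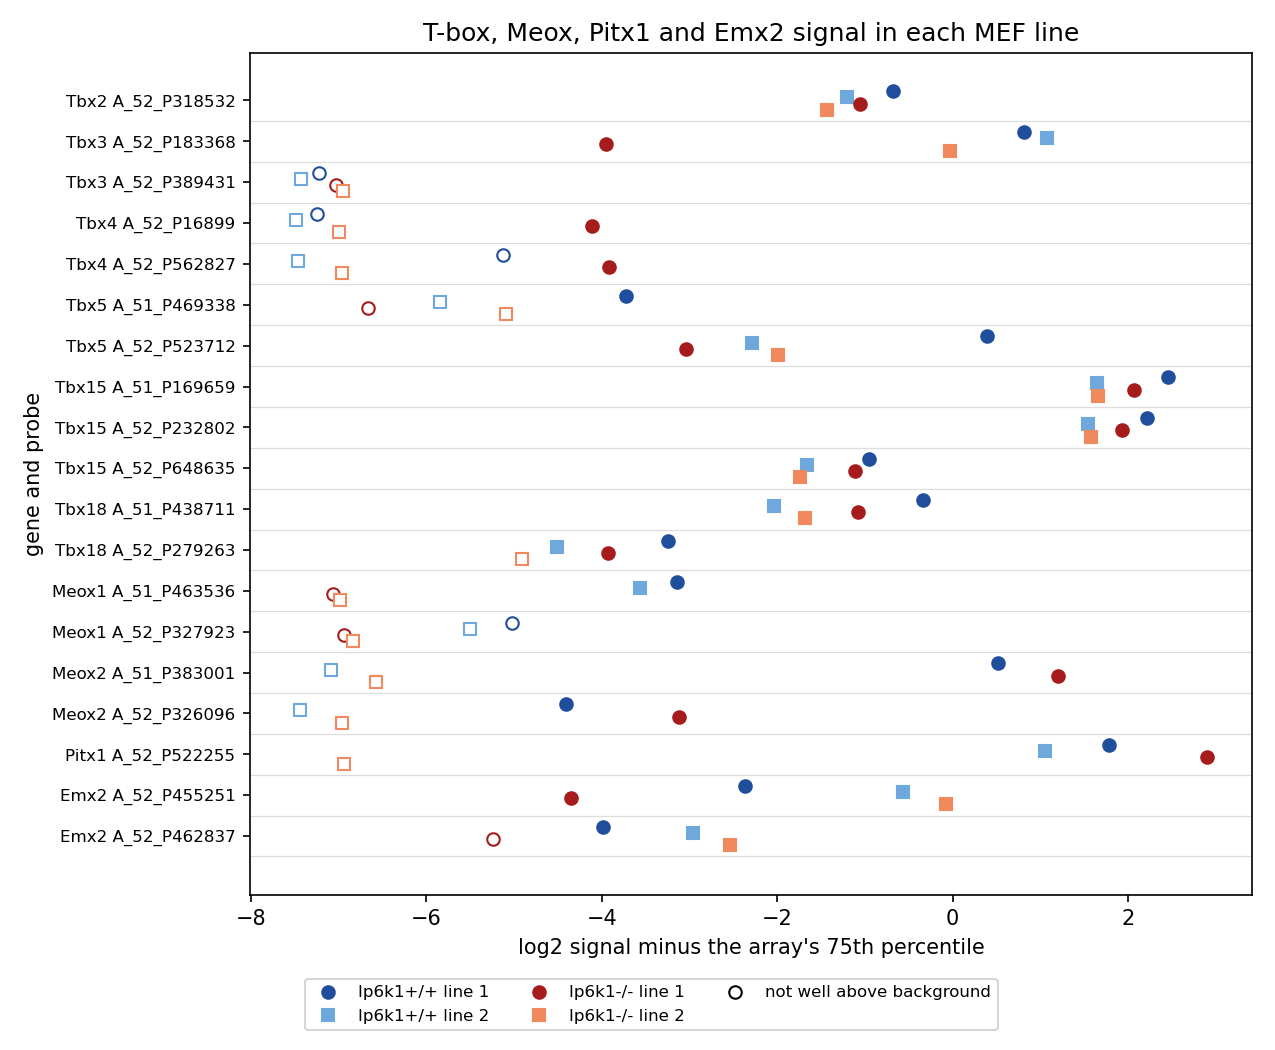
Log2 signal (x axis, relative to the 75th percentile of the array) of each of the 19 probes (y axis) in the 4 MEF lines, 1 point per array, with open symbols where a probe was not well above background. Both Meox2 probes have filled symbols in both lines numbered 1 and open symbols in both lines numbered 2, and Meox1 A_51_P463536 has filled symbols in both Ip6k1+/+ lines only.

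The genotype comparison asked which of these genes differed between Ip6k1-/- and Ip6k1+/+ MEFs. Of the 10 genes, 8 could be tested with 12 probes, and Meox2 and Tbx4 could not. A gene passed the 2-fold cutoff when the mean log2 difference was at least 1 and each Ip6k1-/- line lay at least 0.9 from the Ip6k1+/+ mean. Meox1, Tbx3 and Tbx5 passed it as lower in Ip6k1-/- MEFs, 3 of 8, where 2.5% of all 14335 gene names tested did. None of the 8 passed it as higher, where 1.49% of all gene names did. By limma with Benjamini-Hochberg adjustment over 21573 probes, 0 of the 8 were called in either direction with the threshold of adjusted p set at 0.05, and 0% and 0.014% of all gene names were called higher and lower. At an unadjusted limma p under 0.05, 1 of the 8 stood lower, Meox1, against 2.69% of all gene names, and 0 stood higher, against 1.74%. The 2 genotypes did not overlap for 2 of the 12 probes, those of Meox1 and Tbx3, both lower in Ip6k1-/- MEFs as were 12.8% of all tested probes, and 0 were higher without overlap, as were 18.4% of all tested probes. By the methods' t-test without adjustment, 1 of the 8 passed with at least a 2-fold difference, Meox1 again, on its background readings. Among all gene names 36 passed as higher and 103 as lower. After adjustment 0 of all gene names did. The median log2 difference of the 8 genes, each by its brightest tested probe, was -1.15, against 0.04 over all gene names tested. A gene that entered only through the genotype in which it was bright had to lie lower in the other. This holds for Meox1, and Pitx1 passed the filter through the Ip6k1+/+ lines with 1 Ip6k1-/- line not well above background. It touches the median and each of the counts above, which are given as a description. Over the 19957 probes well above background in all 4 lines, the genes left were Tbx2, Tbx3, Tbx5, Tbx15, Tbx18 and Emx2. Of these, Tbx3 and Tbx5 passed the cutoff as lower and none as higher, while 217 and 113 of all gene names did. The share of all gene names was not computed under this filter, so these counts too are a description. None of these genes stood at an unadjusted limma p under 0.05.

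**Figure D2:**
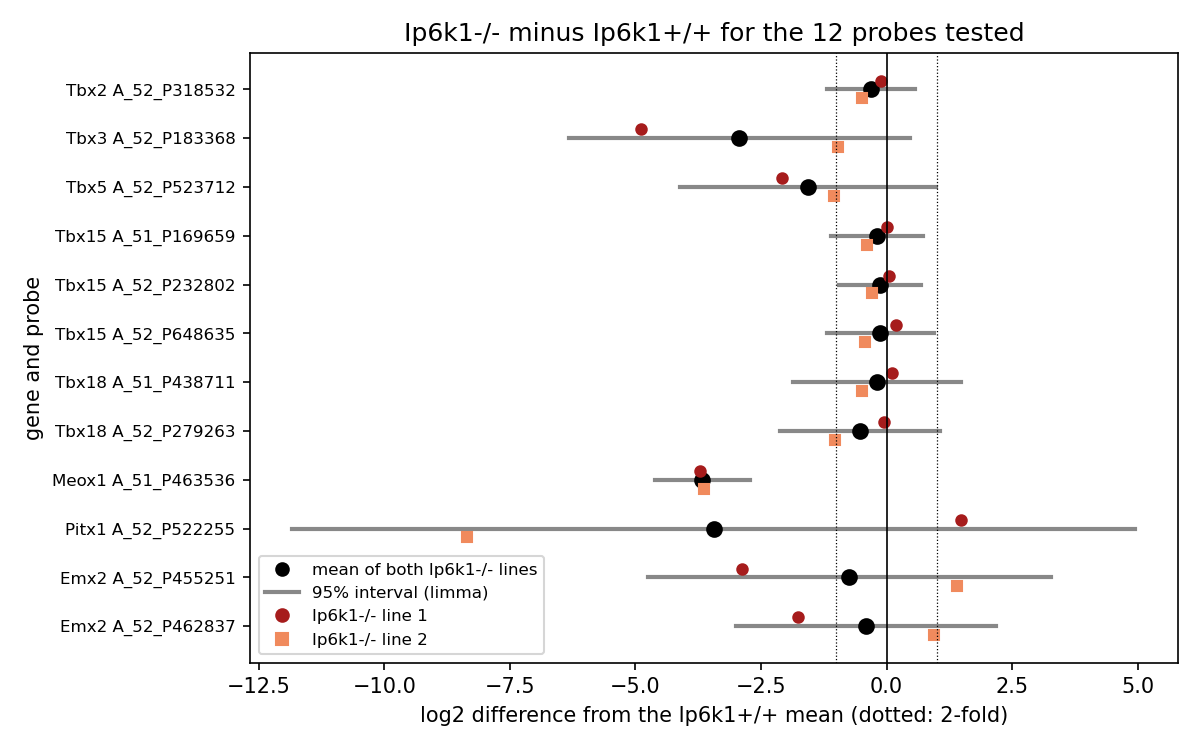
Log2 difference from the Ip6k1+/+ mean (x axis) for the 12 tested probes (y axis): black points are the mean of both Ip6k1-/- lines, grey bars the 95% interval of limma, and coloured symbols the single Ip6k1-/- lines. The interval leaves out 0 for Meox1 alone, whose Ip6k1-/- values are background readings. The 2 Ip6k1-/- lines lie on opposite sides of 0 for Pitx1, both Emx2 probes, every Tbx15 probe and Tbx18 A_51_P438711.

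Meox1, a homeobox factor of the somites, had the smallest p of the group. Probe A_51_P463536 lay at -3.14 and -3.57 in Ip6k1+/+ MEFs, and neither Ip6k1-/- line had a signal well above background. Both Ip6k1-/- values lay below both Ip6k1+/+ values. The Ip6k1+/+ mean was -3.35 ± 0.30 (SD, n = 2 lines), and the Ip6k1-/- mean has only an upper limit. Against the detection limit, Ip6k1+/+ MEFs were at least 2.57-fold above Ip6k1-/- MEFs (limma, Benjamini-Hochberg adjusted p = 0.476). That fit took the background readings of the Ip6k1-/- lines at face value and gave a difference of -3.67 with an SE of 0.36. With dim values raised to the detection limit of their array the difference was -1.36. Comparing single lines, the bound lay between at least 2.16-fold and at least 3.06-fold. Only 41 of the 60 bases of this probe are placed by the file's coordinates (mm9 chr11:101738797-101738837). The other Meox1 probe, A_52_P327923, gave no signal well above background in any of the 4 lines, so it held no level to set beside that of A_51_P463536. With normexp background correction the difference was -0.88 and the gene no longer passed the 2-fold cutoff.

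Meox2, the other Meox gene, which acts in somites and limb muscle, did not follow genotype. Probe A_51_P383001 lay at 0.52 in Ip6k1+/+ line 1 and 1.21 in Ip6k1-/- line 1. Neither line 2 had a signal well above background. Line 1 exceeded line 2 at least 51.7-fold in the Ip6k1+/+ genotype and at least 59.0-fold in the Ip6k1-/- genotype. The homeobox probe A_52_P326096 showed the same lines, at -4.40 in Ip6k1+/+ line 1 and -3.12 in Ip6k1-/- line 1, with at least 1.71-fold and at least 2.93-fold over the line 2 of the same genotype. This pattern of detection, in both lines numbered 1 and neither line numbered 2, was held by 286 probes, 0.695% of all probes on the array. With 1 measured line per genotype, Meox2 entered no genotype test. The 2 measured lines differed by 0.69 for A_51_P383001 and 1.28 for A_52_P326096 on the log2 scale, Ip6k1-/- above Ip6k1+/+.

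The limb-type factors differed from line to line. Pitx1, the homeobox factor of the hindlimb, lay at 1.79 and 1.06 in the Ip6k1+/+ lines and at 2.90 in Ip6k1-/- line 1, the highest value of the 4. Its probe gave no signal well above background in Ip6k1-/- line 2, so that Ip6k1-/- line 1 was at least 191-fold higher than the other line of its own genotype. Line 2 was also exceeded at least 88.2-fold and at least 53.1-fold by the Ip6k1+/+ lines. The difference between genotypes was -3.44 with an SE of 3.21 (limma, adjusted p = 0.994), and its 95% interval, -11.8 to 4.95, took in large differences of both signs. These values use the background reading of Ip6k1-/- line 2, and with dim values raised to the detection limit the difference was -2.31. Without Ip6k1-/- line 2 the difference turned to 1.48.

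Tbx4, the T-box factor of the hindlimb, was well above background in Ip6k1-/- line 1 alone, by both of its probes. They read -4.11 for A_52_P16899 and -3.92 for the T-box probe A_52_P562827, both within 1 log2 unit of the detection limit of that array. Against the other Ip6k1-/- line this was at least 1.48-fold and at least 1.69-fold. Against the Ip6k1+/+ lines it was at least 2.09-fold to at least 2.39-fold over both probes. In Ip6k1+/+ line 1, A_52_P562827 was not called well above background, though its reading lay 0.07 above the detection limit of that array. Detection in Ip6k1-/- line 1 alone was found for 0.873% of all probes. The line with Tbx4 was also the line with the highest Pitx1 signal.

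Tbx5, the T-box factor of the forelimb, was highest in Ip6k1+/+ line 1. Probe A_52_P523712 read 0.40 and -2.28 in Ip6k1+/+ MEFs against -3.03 and -1.99 in Ip6k1-/- MEFs. The genotypes overlapped, with Ip6k1+/+ line 2 below Ip6k1-/- line 2. The difference of -1.57 with an SE of 0.97 passed the 2-fold cutoff but not the test (limma, adjusted p = 0.994; 95% interval -4.11 to 0.98). Without Ip6k1+/+ line 1 it shrank to -0.23, and without Ip6k1+/+ line 2 it grew to -2.91. The junction probe A_51_P469338 was well above background only in Ip6k1+/+ line 1, at -3.72, at least 1.94-fold over each of the other lines. Both probes therefore placed the highest Tbx5 signal in the same line.

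Tbx3, a T-box repressor, is the chromosome 5 neighbour of Tbx5, and the main probes of the 2 genes lie 200 kb apart on mm9. Its probe A_52_P183368 read 0.82 and 1.07 in Ip6k1+/+ MEFs against -3.95 and -0.02 in Ip6k1-/- MEFs. Both Ip6k1-/- lines were below both Ip6k1+/+ lines, and Ip6k1-/- line 1 minus line 2 came to -3.92. The means were 0.95 ± 0.18 (SD, n = 2 lines) and -1.99 ± 2.77 (SD, n = 2 lines), a difference of -2.93 with an SE of 1.30 (limma, adjusted p = 0.994; 95% interval -6.33 to 0.46). Ip6k1-/- line 1 carried most of it: without that line the difference was -0.97, and without Ip6k1-/- line 2 it was -4.89. The other Tbx3 probe, A_52_P389431, gave no signal well above background in any of the 4 lines. Ip6k1-/- line 1 held the lowest value of the 4 lines for both Tbx3 A_52_P183368 and Tbx5 A_52_P523712, while Ip6k1+/+ line 2 was the highest for Tbx3 and below Ip6k1-/- line 2 for Tbx5.

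Tbx2, the paralogue of Tbx3, lies beside Tbx4 on chromosome 11, with 70.1 kb between the probes on mm9. It read -0.68 and -1.20 in Ip6k1+/+ MEFs against -1.06 and -1.43 in Ip6k1-/- MEFs. The genotypes overlapped, and no line stood more than 0.76 from another. The difference was -0.30 with an SE of 0.33 (limma, adjusted p = 0.994), and the 95% interval from -1.18 to 0.57 took in a 2-fold lower signal. Tbx2 was thus measured in all lines while its neighbour Tbx4 was not.

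Tbx15, a T-box factor of skeletal and dermal mesenchyme, had ranges over the 4 lines of 0.82, 0.67 and 0.79 for its 3 probes. That of Tbx2 was 0.76, and the median over all tested probes was 0.66. Probe A_51_P169659 read 2.46 and 1.64 in Ip6k1+/+ MEFs against 2.06 and 1.65 in Ip6k1-/- MEFs. Probe A_52_P232802 read 2.22, 1.55, 1.93 and 1.58 in Ip6k1+/+ line 1, Ip6k1+/+ line 2, Ip6k1-/- line 1 and Ip6k1-/- line 2. Probe A_52_P648635 read -0.95, -1.66, -1.12 and -1.74 in the same order. For the first 2 probes both Ip6k1-/- values lay within the Ip6k1+/+ range, and for A_52_P648635 Ip6k1-/- line 2 lay just below it. By every probe line 1 was above line 2 in both genotypes. The genotype differences were -0.19, -0.12 and -0.12 (limma, adjusted p = 0.994 for each), and the widest of their 95% intervals, that of A_52_P648635, ran from -1.18 to 0.94. All 3 differences changed sign without Ip6k1+/+ line 1 and without Ip6k1-/- line 2.

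Tbx18, a T-box factor of the anterior somite parts, the epicardium and the ureter, shares chromosome 9 with Ip6k1, 20348635 bases away between probes on mm9. Probe A_51_P438711 read -0.34 and -2.04 in Ip6k1+/+ MEFs against -1.08 and -1.68 in Ip6k1-/- MEFs. Both Ip6k1-/- values lay between the Ip6k1+/+ values. Probe A_52_P279263 read -3.25, -4.51 and -3.93 in Ip6k1+/+ line 1, Ip6k1+/+ line 2 and Ip6k1-/- line 1, but did not stand well above background in Ip6k1-/- line 2. The differences were -0.19 with an SE of 0.64 and -0.54 with an SE of 0.61 (limma, adjusted p = 0.994 for both). Line 1 was above line 2 in both genotypes here too.

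Emx2, a homeobox factor of the scapula, urogenital tract and forebrain, had its highest signal in both lines numbered 2. Probe A_52_P455251 read -2.37 and -0.57 in Ip6k1+/+ MEFs against -4.35 and -0.07 in Ip6k1-/- MEFs. Probe A_52_P462837 read -3.98 and -2.96 in the Ip6k1+/+ lines and -2.53 in Ip6k1-/- line 2, but did not stand well above background in Ip6k1-/- line 1. By both probes, Ip6k1-/- line 1 was the lowest and Ip6k1-/- line 2 the highest of the 4 lines. Within the Ip6k1-/- genotype the 2 lines differed by 4.28 by the first probe and at least 4.66-fold by the second. The genotype differences of -0.74 with an SE of 1.53 and -0.41 with an SE of 0.99 (limma, adjusted p = 0.994 for both) changed sign without Ip6k1+/+ line 2 and without Ip6k1-/- line 1.

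The differences between lines of 1 genotype were set beside the difference between genotypes. For 8 of the 12 tested probes, 66.7%, the genotype difference was smaller than both differences between lines of a genotype. The share was 45.2% over all tested probes. The 2 measures are unlike, since a genotype difference is between means of 2 lines and a line difference is between single lines. Means vary less than single lines, so the shares do not show that lines differed more than genotypes. The 8 were probes of Tbx2, Tbx15, Tbx18 and Emx2, several of them for the same gene. The tested probes of Meox1, Pitx1, Tbx3 and Tbx5 were not among them, so the share of probes is not a share of genes. The median range over the 4 lines was 2.20 for the 12 probes and 0.66 for all tested probes, on the log2 scale. These ranges take background readings at face value, among the 12 those of Meox1, Pitx1, Emx2 A_52_P462837 and Tbx18 A_52_P279263. They also count each probe of a gene separately. Over all tested probes, the array of Ip6k1+/+ line 1 correlated with Ip6k1+/+ line 2 at r = 0.953 and with Ip6k1-/- line 1 at r = 0.963. Ip6k1-/- line 2 correlated with Ip6k1-/- line 1 at r = 0.949 and with Ip6k1+/+ line 2 at r = 0.973. The remaining pairs were Ip6k1+/+ line 2 with Ip6k1-/- line 1 at r = 0.953 and Ip6k1+/+ line 1 with Ip6k1-/- line 2 at r = 0.936. By the median absolute log2 difference, Ip6k1-/- line 1 lay 0.285 from Ip6k1+/+ line 1 and 0.285 from Ip6k1+/+ line 2. These correlations are across 21573 probes that share arrays and probe brightness, and are given as a description.

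**Figure D3:**
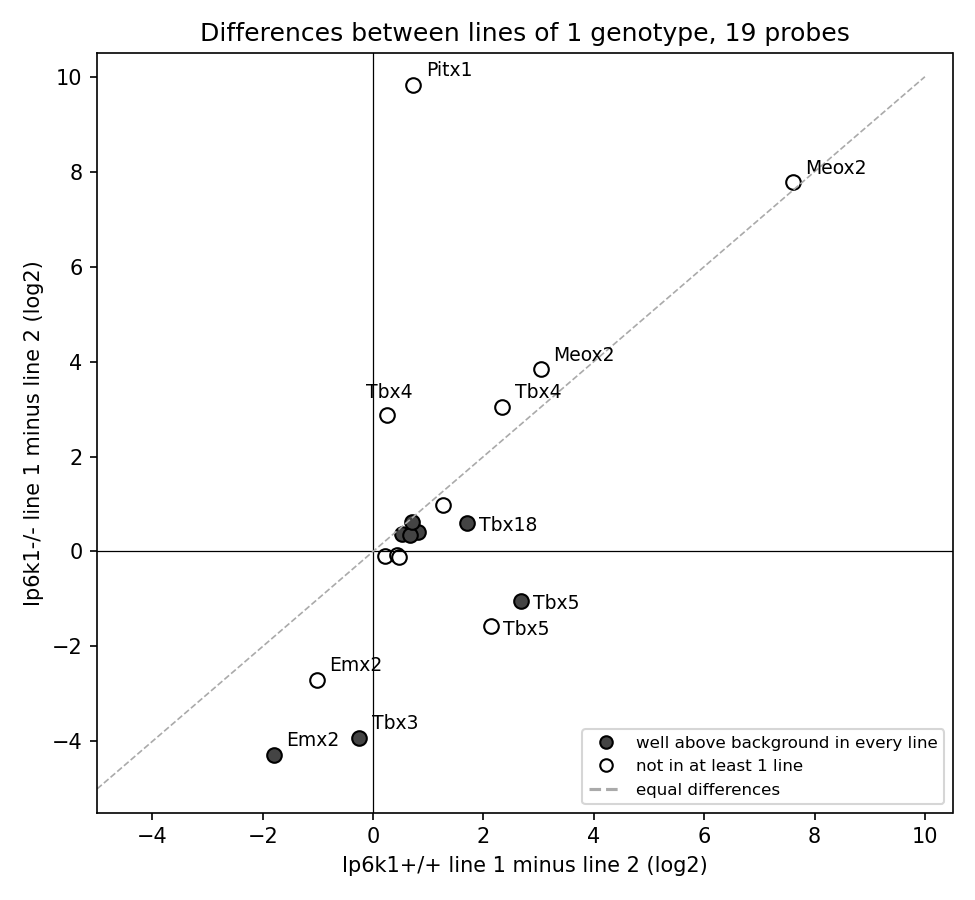
Line 1 minus line 2 on the log2 scale within the Ip6k1+/+ genotype (x axis) and within the Ip6k1-/- genotype (y axis), 1 point for each of the 19 probes, filled where the probe was well above background in all 4 lines and open otherwise; the dashed line marks equal differences. Both Meox2 probes lie near the dashed line far from 0, Pitx1 lies high on the y axis only, and the Emx2 probes lie below 0 on both axes.

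**Figure D4:**
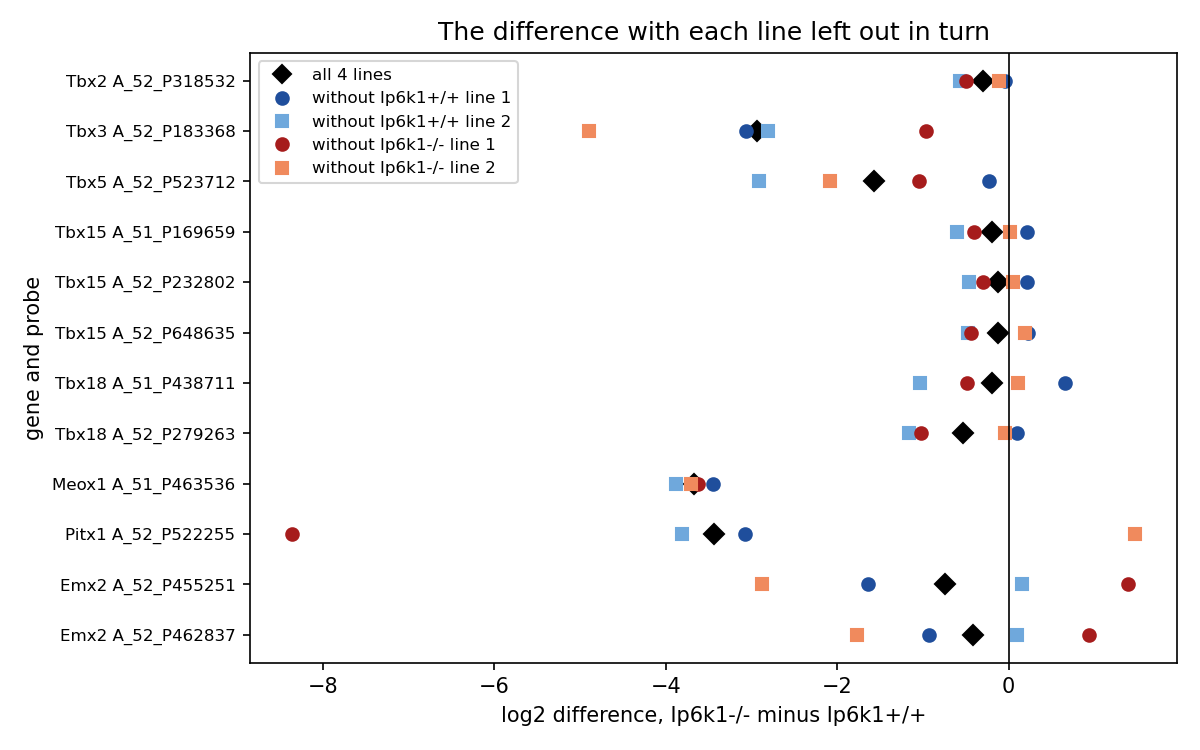
Log2 difference between Ip6k1-/- and Ip6k1+/+ MEFs (x axis) for the 12 tested probes (y axis), with all 4 lines (diamonds) and with each line left out in turn (coloured symbols). Tbx3 runs from -4.89 to -0.97 and Tbx5 from -2.91 to -0.23; the Meox1 and Pitx1 values use background readings of the Ip6k1-/- lines in which they were not well above background.

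Single lines decided several values. With each line left out in turn, the log2 difference ran from -4.89 to -0.97 for Tbx3, and from -2.91 to -0.23 for Tbx5 A_52_P523712. It kept its sign in both and in Tbx2. For Meox1 it ran from -3.88 to -3.45, a range that holds the background readings of both Ip6k1-/- lines and is no measure of how stable its expression was. It changed sign for Pitx1, Emx2, Tbx15 and Tbx18 in at least 1 of the 4 settings. Tbx5 no longer passed the 2-fold cutoff without Ip6k1+/+ line 1, and Tbx3 no longer passed it without Ip6k1+/+ line 2 or Ip6k1-/- line 1.

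For the 4 genes that were measured on all arrays and ranged over more than 1 log2 unit, the genes with the most similar line values were searched among 19957 probes well above background in every line. Likeness was the Euclidean distance between the 4 line values after each probe was centred on its own mean. The nearest to Emx2 A_52_P455251 were Frat1, Fez1 and Calcrl, at distances of 0.12, 0.20 and 0.50. Frat1 read -2.50, -0.69, -4.59 and -0.14 in Ip6k1+/+ line 1, Ip6k1+/+ line 2, Ip6k1-/- line 1 and Ip6k1-/- line 2. Its order of lines was that of Emx2. The nearest to Tbx3 A_52_P183368 was Galntl4 at 0.37, with Fbxl7 at 0.94 and Gria3 at 0.97. Those nearest to Tbx18 A_51_P438711 were Syt11, Pgbd5 and Stard5, at 0.09, 0.10 and 0.11. Those nearest to Tbx5 A_52_P523712 were Zfp389, E430002G05Rik and Lgr4, at 0.49, 0.50 and 0.51. The search rests on 4 arrays and is a description of them.

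The other genes of the T-box family and of limb and somite patterning give the setting. Of 11 other T-box genes, 2 could be tested, Tbx6 and Mga, and neither passed the 2-fold cutoff. Of 34 limb bud and mesenchyme transcription factors, 21 could be tested. None was higher by the 2-fold cutoff and 1 was lower: Osr2, a factor of limb joints, read -2.59 and -3.70 in Ip6k1+/+ MEFs, with no signal well above background in Ip6k1-/- MEFs (limma, adjusted p = 0.994). Of 14 limb signals, 7 could be tested, and Grem1, an antagonist of bone morphogenetic proteins, passed the cutoff as higher at 1.51. Grem1 read -0.36 and 2.13 in Ip6k1+/+ MEFs against 1.89 and 2.89 in Ip6k1-/- MEFs, so the genotypes overlapped. Of 16 somite and trunk mesoderm factors, 9 could be tested, and Meox1, Pax9 and Mkx passed the cutoff as lower; this list holds Meox1, Meox2 and Tbx18 themselves. Mkx, a homeobox factor of tendon, read -1.25 and -0.45 in Ip6k1+/+ MEFs against -2.32 and -2.94 in Ip6k1-/- MEFs. Limma called none of these lists' genes, and at an unadjusted limma p under 0.05 there were 0, 2, 0 and 3 in the 4 lists in the order given, all lower. The median log2 differences of the lists, in that order, were -0.26, -0.20, 0.00 and -1.04, against 0.04 over all gene names tested. Among others, Osr2, Meox1 and Pax9 entered only through the Ip6k1+/+ lines and had to lie lower in Ip6k1-/- MEFs, so the counts and medians of their lists are a description.

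Detection that followed the line number, as in Meox2, was also seen outside the 10 genes, and the genes named here were chosen after their values were seen. Among the 71 other genes of these 4 lists, 2 were well above background in both lines numbered 1 and in neither line numbered 2, Bmp2 and Nkx3-2. The reverse held for 5 of the 71, Tbx1, Pax3, Shox2, Meis1 and En1. Over the array, the 2 patterns held for 0.695% and 0.919% of single probes. A gene here counted by any of its probes, so these shares are not of the same unit as the gene counts. Tbx1, a T-box factor of the pharyngeal arches, read 1.42 in Ip6k1+/+ line 2 and 3.09 in Ip6k1-/- line 2. Pax3, a factor of the dermomyotome and neural crest, read -0.44 and 0.01 in these 2 lines. Msx1, a homeobox factor of limb mesenchyme, was measured in all lines, at 2.66 and 1.64 in the lines numbered 1 and -2.75 and -3.00 in those numbered 2.

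**Figure D5:**
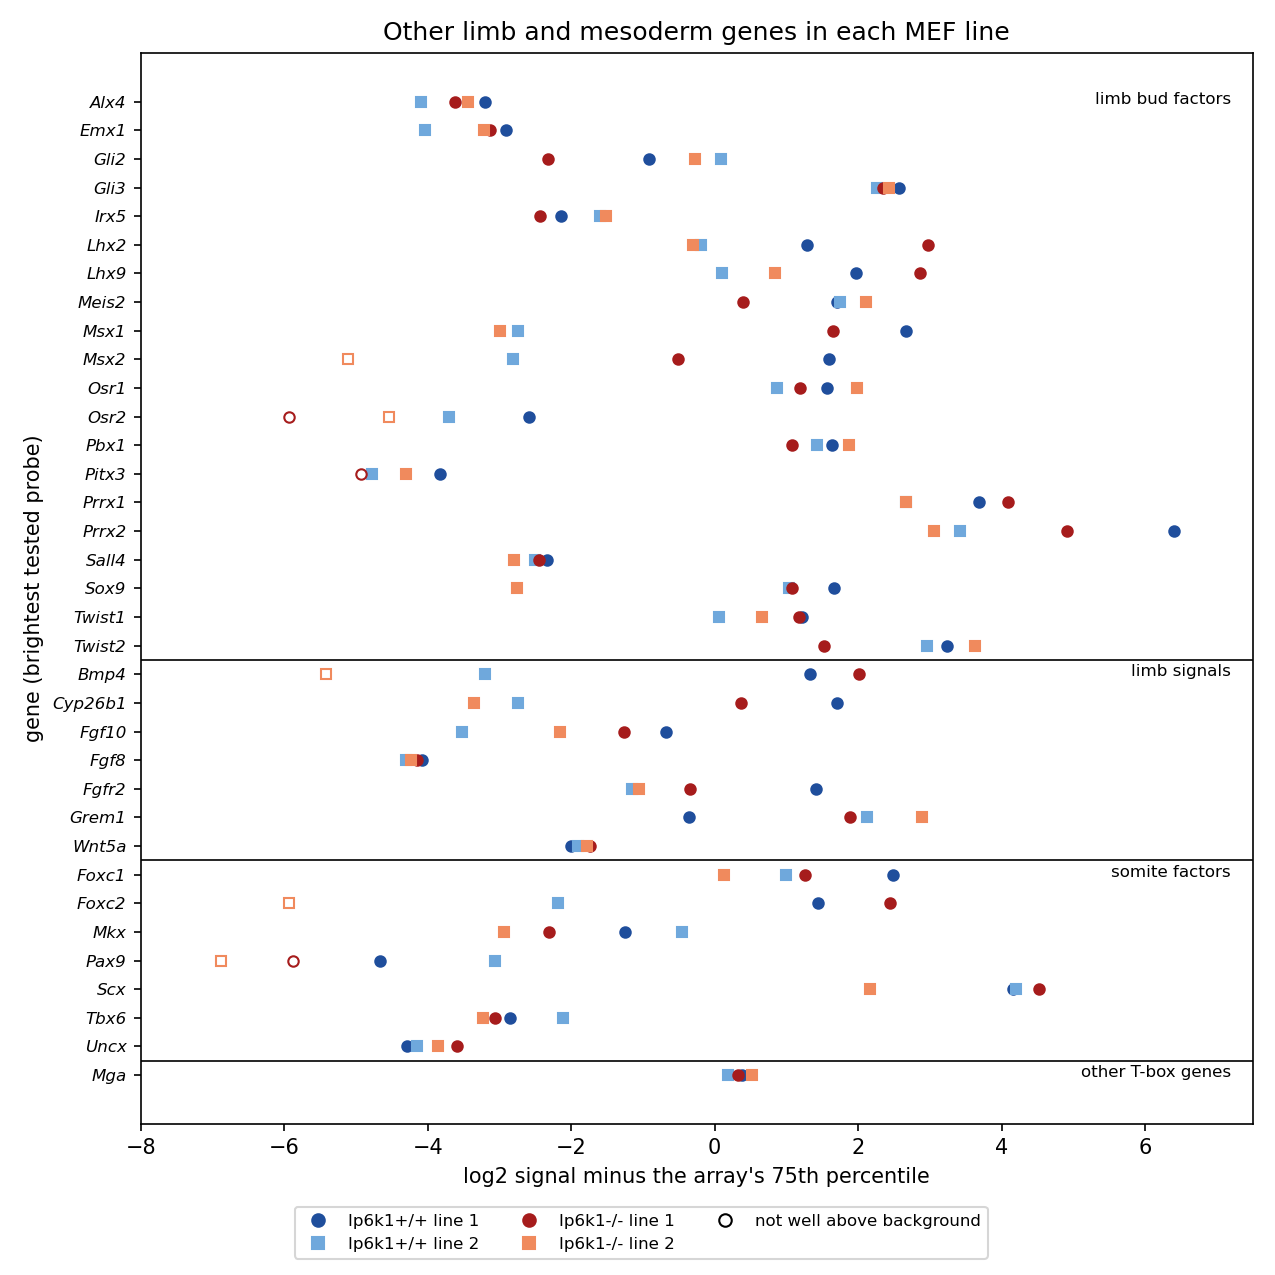
Log2 signal (x axis, relative to the 75th percentile of the array) of the brightest tested probe of other limb bud factors, limb signals, somite factors and T-box genes (y axis) in the 4 MEF lines, open where not well above background. Msx1 lies at 2.66 and 1.64 in the lines numbered 1 and at -2.75 and -3.00 in the lines numbered 2, whatever the genotype, and Mkx is lower in both Ip6k1-/- lines.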

How the data were processed

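RNA of 2 Ip6k1+/+ and 2 Ip6k1-/- MEF lines was primed with oligo-dT, labelled with Cy3 as cRNA and hybridised to Agilent arrays of design 014868. The deposited intensity values are the processed signals of Agilent Feature Extraction 10.5.1.1, background-corrected by the scanner software, with probe positions on mm9. The authors also deposited log2 values, shifted in GeneSpring GX to the 75th percentile of each array, and these served as an alternative. Here, log2 of the processed signal minus the 75th percentile of each array was computed over spots that were not controls. Spots with an outlier flag were left out (96 to 133 per array), saturated spots were kept, and spots of a probe were averaged. The 75th percentile was 607 to 746 units.

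Probes with a call of well above background in every line of 1 genotype or the other were tested with limma 3.58.1 in R 4.3.3 (lmFit, eBayes with a variance trend), with Benjamini-Hochberg adjustment over 21573 probes. Intervals are 95% intervals of the fit. A lower bound sets the mean of the bright group against, per array, the higher of the lowest well-above-background signal and the probe's own. A gene name passed the 2-fold cutoff if any of its tested probes did. The script was tested on simulated data. With 4 arrays the precision is limited by their number. The limma p-values set the genotype difference against the spread between lines of a genotype, moderated over all tested probes. With 1 array per line, that spread also holds the variation between arrays. All 4 arrays shared 1 slide and 1 scan, so no slide block was fitted.

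The 10 genes and the comparison lists were chosen with earlier results of these data known. Named genes were all 10, Ip6k1, genes of the other lists that passed the cutoff or an unadjusted p under 0.05, and the 3 gene names nearest in line values, except 1 gene of the limb bud list, which is not reported here. The alternatives were normexp background correction (offset 50), quantile normalization, a median shift, the deposited log2 values, a stricter and no filter on dimness, dim values raised to a floor, outlier spots kept, the replicate number as a block, limma without the trend, the t-test of the study's methods, the mean of a gene's probes, and each array left out.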

Additional observations from a re-analysis of the deposited data

How the results depend on the processing

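No member was called by limma, or by the methods' t-test after adjustment, under any alternative run. The mean of a gene's probes was run for counts only, the 2-fold counts do not depend on the test and were not repeated for the block, the trend or the t-test, and 8 of the 12 probes were left over probes measured in all 4 lines. Under normexp background correction, 1 of the 10 genes, Tbx3, passed the 2-fold cutoff as lower, with 0 of the limb bud factors and 1 of the somite factors, while all gene names went from 358 to 162 lower and from 214 to 51 higher. Without a filter on dim probes, 2 limb bud factors passed as lower. With probes required to be well above background in every line, none of the genes left stood at an unadjusted limma p under 0.05. There 0 limb bud factors and 1 somite factor passed as lower, and all gene names gave 217 lower and 113 higher. With the median shift Tbx3 did not pass the cutoff. In the other normalizations Meox1, Tbx3 and Tbx5 all passed. The adjusted p of Meox1 lay between 0.208 and 0.997 over its alternatives, and that of Tbx3 did not go below 0.323.

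With the replicate number as a block, Meox1 and Tbx3 of the 8 tested genes stood at an unadjusted p under 0.05 (limma, adjusted p = 0.209 and 0.512). None of the 8 was called, and 2 of all gene names were. The share of all gene names at the unadjusted threshold was not computed for the block. The value of Meox1 again used background readings, so the count is a description. Line 1 minus line 2 correlated at 0.48 between the 2 genotypes over all tested probes, which with 2 pairs and no label to that effect does not show that the numbers pair the lines.

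With each line left out in turn, 2 to 4 of the 10 genes passed the cutoff as lower and 0 to 3 as higher. All gene names gave 765 to 1148 lower and 238 to 1160 higher in these settings. The share of all gene names was not computed for them, so these counts and those of the other lists are a description. Other T-box genes gave 0 to 1 lower and 0 to 2 higher, limb bud factors 0 to 6 lower and 0 to 5 higher, limb signals 0 to 3 lower and 1 to 4 higher, and somite factors 3 to 7 lower and 0 to 3 higher. Of the 12 probe differences, 8 changed sign in some of these settings. Tbx15 ran from -0.60 to 0.21, from -0.46 to 0.21 and from -0.48 to 0.23 over its 3 probes, and Tbx18 from -1.04 to 0.66 and from -1.17 to 0.10 over its 2 probes, with the highest value without Ip6k1+/+ line 1. Emx2 ran from -2.88 to 1.40 and from -1.77 to 0.94, highest without Ip6k1-/- line 1, and Pitx1 from -8.36 to 1.48, highest without Ip6k1-/- line 2. The cause of these changes was not tested. Where an arm held 1 line, that line was assumed to vary like the other genotype.

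Signal over background limits the values of probes within 3 log2 units of the detection limit, among them Tbx4, Meox1 and the second probes of Meox2, Tbx5, Emx2 and Tbx18 throughout, Tbx5 A_52_P523712 in 3 lines, and Tbx3 A_52_P183368 (0.80 above) and Emx2 A_52_P455251 (0.40 above) in Ip6k1-/- line 1. Under normexp the difference of that Emx2 probe was -0.28 and that of Tbx5 was -1.08.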
